A study of Rattus norvegicus with 31 samples.

Results

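The genes that encode the transcription machinery were followed in the mononuclear blood cells (PBMC, mainly lymphocytes with some monocytes) of rats. They are the subunits of RNA polymerases I, II and III, the Mediator subunits, the TBP-associated factors (TAFs) and the general transcription factors TFIIA to TFIIH, TFII-I, TFIIIA and TFIIIC. Members were set by a rule on the array's gene names, chosen with earlier results of these data known. It took every non-control probe whose name begins with Polr1, Polr2 or Polr3, Med or Taf and a digit, or Gtf2 or Gtf3. This gave 128 probes for 92 genes, of 41012 probes on the array with 34235 distinct names. By family there were 4 genes of RNA polymerase I, 12 of polymerase II, 8 of polymerase III, 27 Mediator genes, 19 TAFs, 15 Gtf2 and 7 Gtf3 genes. The families are uneven in what they hold: Polr2a and Polr3a, which encode the largest subunits of polymerases II and III, are not analysed here.

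RNA from 31 offspring was hybridised, 1 array per animal, in 3 groups. The 13 CR-L animals were born to dams fed 20% less on days 1 to 12 of pregnancy and were given leptin while suckling, up to postnatal day 21, in daily doses of 1.0 to 43.8 ng (about 5 times the leptin taken in with milk). The 11 CR animals came from dams restricted in the same way and suckled without leptin, and the 7 WT animals came from dams on normal feeding. All animals ate chow freely for 4 months before blood was drawn. Both sexes were used and 16 rats were mated, but the labels do not give the sex, dam or litter of a sample. Animals of a group can therefore be littermates. The p-values below treat the arrays as independent and can be too small if littermates resemble each other. Each value is the log2 ratio of the animal's signal (Cy5) over 1 shared reference pool (Cy3) of RNA from 5 randomly taken samples per group, called the log2 ratio below. Differences are differences of mean log2 ratios between groups, with their standard error (SE). In RNA from mixed blood cells, fewer cells of a type and less RNA per cell cannot be told apart.

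Transcription by a eukaryotic RNA polymerase starts when general factors place the enzyme at a promoter. At genes of polymerase II, TFIID (TBP and its TAFs) recognises the core promoter, TFIIA and TFIIB stabilise it, TFIIF brings the polymerase, and TFIIE and TFIIH open the DNA, while Mediator carries signals from bound activators to the enzyme. Polymerase I makes the large ribosomal RNA precursor with the help of SL1 (TBP and the TAF1A to TAF1D subunits), and polymerase III makes transfer RNA and 5S RNA with TFIIIA, TFIIIB and TFIIIC. Some subunits serve more than 1 enzyme: Polr2e, Polr2f, Polr2h, Polr2k and Polr2l belong to all 3 polymerases, and Polr1c to polymerases I and III. In blood cells this machinery is present in every nucleated cell type.

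The array reads each gene through probes of 60 bases, and a few are shown because the results turn on what exactly they measure. The Polr2b and Taf1b probes each span a splice junction, so that they lie in spliced transcripts: the first covers chr14:33077330-33077593 on the minus strand and the second chr6:42146676-42147017 on the plus strand of build rn4. The Taf9b probe lies at chrX:94350415-94350474 on the minus strand, near the start of a transcript that a further probe reads farther along, with a difference of the opposite sign. All letters are in lower case because nothing in them is marked.
Polr2b: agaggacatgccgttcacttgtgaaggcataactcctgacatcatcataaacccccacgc
Taf1b: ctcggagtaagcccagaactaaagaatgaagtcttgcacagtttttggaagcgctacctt
Taf9b: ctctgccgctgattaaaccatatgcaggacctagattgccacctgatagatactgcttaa

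Promoters are shown for 5 of the genes described below. They are 3 of the 9 genes called lower in CR-L against WT (Taf9, Med6 and Taf1b). After them come 2 of the 3 called higher (Med26 and Polr2b). Each sequence is the 250 bases before the gene's annotated start, written in the direction of transcription, from RefSeq on build GRCr8: chr2:33528138-33528387 (plus) for Taf9, chr6:107015131-107015380 (minus) for Med6, chr6:46845802-46846051 (plus) for Taf1b, chr16:17333520-17333769 (plus) for Med26 and chr14:31189223-31189472 (minus) for Polr2b. Capitals mark matches, on either strand, to 4 motifs of core promoters and factors, which are TATAAA as bound by TBP, the box CCAAT, the Sp1 motif GGGCGG and the motif of ETS factors CCGGAAG.
Taf9: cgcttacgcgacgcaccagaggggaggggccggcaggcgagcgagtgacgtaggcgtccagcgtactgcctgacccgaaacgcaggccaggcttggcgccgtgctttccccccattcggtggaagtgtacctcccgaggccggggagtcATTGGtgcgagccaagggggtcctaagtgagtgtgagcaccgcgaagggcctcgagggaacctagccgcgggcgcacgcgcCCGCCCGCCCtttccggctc
Med6: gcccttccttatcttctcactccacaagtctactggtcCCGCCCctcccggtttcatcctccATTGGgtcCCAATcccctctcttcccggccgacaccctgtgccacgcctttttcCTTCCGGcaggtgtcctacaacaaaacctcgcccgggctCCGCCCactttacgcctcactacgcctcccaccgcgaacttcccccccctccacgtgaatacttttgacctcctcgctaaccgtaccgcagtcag
Taf1b: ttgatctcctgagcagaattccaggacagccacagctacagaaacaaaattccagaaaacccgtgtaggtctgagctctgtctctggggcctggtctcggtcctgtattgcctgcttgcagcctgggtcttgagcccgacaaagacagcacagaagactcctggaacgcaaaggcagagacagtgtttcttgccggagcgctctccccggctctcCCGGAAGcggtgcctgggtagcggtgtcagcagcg
Med26: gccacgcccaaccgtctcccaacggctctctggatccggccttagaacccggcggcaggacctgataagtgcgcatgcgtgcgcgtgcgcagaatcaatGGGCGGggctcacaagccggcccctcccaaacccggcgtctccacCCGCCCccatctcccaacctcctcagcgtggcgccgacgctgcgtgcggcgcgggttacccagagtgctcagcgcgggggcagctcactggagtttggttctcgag
Polr2b: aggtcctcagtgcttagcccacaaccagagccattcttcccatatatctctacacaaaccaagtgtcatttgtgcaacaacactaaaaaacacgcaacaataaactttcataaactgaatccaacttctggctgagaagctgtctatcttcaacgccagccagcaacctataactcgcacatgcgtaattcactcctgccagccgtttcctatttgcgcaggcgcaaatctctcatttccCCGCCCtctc

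A promoter was matched for 78 of the 92 genes. GGGCGG was found in 51 of them (65.4%), against 32.4% of all 27457 promoters of the table, and CCGGAAG in 23 (29.5%), against 7.74%. CCAAT occurred in 29 (37.2%), against 34.3%. TATAAA occurred in 4 (5.13%), against 13.1%. Those 4 promoters are of Gtf3c6, Med16, Taf13 and Taf7l. Among the 5 printed, Med6 held 5 matches, Taf9 held 3, Med26 held 2, and Taf1b and Polr2b had 1 each. Of those shown, CCAAT was found in Taf9 and Med6, GGGCGG in all but Taf1b, and CCGGAAG in Med6 and Taf1b, and the GGGCGG matches of Taf9 overlap each other. Such matches describe the letters and not the binding of a factor.

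Nearly all of the probes that the rule took in were measurable in these cells. On at least 7 arrays, the minimum used, 123 probes of 89 genes were well above background in the red channel, and 120 probes were so on all 31 arrays. The 5 probes that were not tested are the only ones of Gtf2a1l, Med14-ps1 and Taf7l, and 1 each of Taf1c and Taf1d, genes that have other probes. Gtf2a1l and Taf7l are relatives of TFIIA and TFIID subunits known from germ cells. No member spot was saturated. The median within-group SD of the member probes was 0.13, against 0.14 for all 26770 probes tested, and ran from 0.066 for Polr2l to 0.28 for Med12l. Median red intensity was 235 on WT replicate 6 and ran from 69.8 to 93.9 on all other arrays, over a background of 27 to 30.5. The 31 arrays lay on 8 slides that each held several groups. In a check on simulated data with the group sizes of CR against WT, 200 probes were altered over independent normal noise. The test found 45.7% of the altered probes at a log2 difference of 0.25 and 90.1% at 0.5. Variation shared between probes or arrays was not simulated, so these shares need not hold for the real arrays.

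Markers of blood cell types were read on the same arrays, and their part in the results below was not tested beyond the covariate fits given there. The mean of 11 T cell markers (all on every array) ranged from -0.26 to 0.36 in CR-L, from -0.16 to 0.23 in CR and from -0.24 to 0.16 in WT, and 10 of the 11 were above 0 in CR-L minus WT. All 8 B cell markers measured of 10 listed were below 0 in that difference, with list means of -0.82 to 0.30 in CR-L, -0.97 to 0.39 in CR and -0.48 to 0.28 in WT. All 8 NK and cytotoxic markers were above 0 there, with list means of -0.71 to 0.55 in CR-L, -0.41 to 0.49 in CR and -0.35 to 0.20 in WT. Of 7 monocyte markers measured, 3 were above 0 in CR-L minus WT. Wide ranges were also seen for cells that a PBMC preparation should largely lack. Erythroid markers ran from -2.57 to 1.65 in CR-L, from -2.25 to 0.91 in CR and from -1.21 to 0.27 in WT. Granulocyte markers ran from -0.88 to 1.15, -0.77 to 0.30 and -0.45 to 0.95 in the same order of groups. Platelet markers ran from -2.81 to 0.92 in CR-L, from -0.63 to 0.79 in CR and from -1.54 to 0.18 in WT. Above 0 in CR-L minus WT were 9 of 9 erythroid (median 0.33), 2 of 9 granulocyte (median -0.26) and 4 of 7 platelet markers (median 0.011). In CR minus WT the markers above 0 were 10 of 11 for T cells, 1 of 8 for B cells, 0 of 7 for monocytes, 8 of 8 for NK cells, 1 of 9 for granulocytes, 0 of 9 for erythroid cells and 7 of 7 for platelets. In CR-L minus CR all 9 erythroid markers were above 0 (median 0.64) and all 7 platelet markers below 0 (median -0.40). The ranges of the groups overlapped for every list, and no marker of these 7 lists passed the test in any comparison.

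For 2402 transcripts with probes at least 300 bases apart, the probe farther along was set against the one nearer the start on each array, as the quality of RNA can act unevenly along a transcript. The median of this late-minus-early difference averaged 0.016 ± 0.042 in CR-L (SD, n = 13), 0.0044 ± 0.036 in CR (SD, n = 11) and -0.033 ± 0.035 in WT (SD, n = 7). The mean of CR-L includes replicate 5 at 0.12, the highest array. By the middle array of each group CR-L was below CR, with 0.0047 in CR-L, 0.018 in CR and -0.030 in WT. CR-L and WT differed by 0.049 (exact permutation test, two-sided, p = 0.00818, Benjamini-Hochberg adjusted over the 3 comparisons 0.0245), CR and WT by 0.037 (exact permutation p = 0.0458, adjusted 0.0686), and CR-L and CR by 0.012 (permutation p = 0.4926, adjusted 0.4926). In CR-L minus WT the later probe was the higher in 68.4% of the transcripts, and in 15 of 18 member transcripts. With this measure as a covariate the calls of 7 probes in CR-L against WT were lost: the early Taf9b probe, both called probes of Taf1d and of Polr2m, Taf7 and Gtf2a2.

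**Figure D1:**
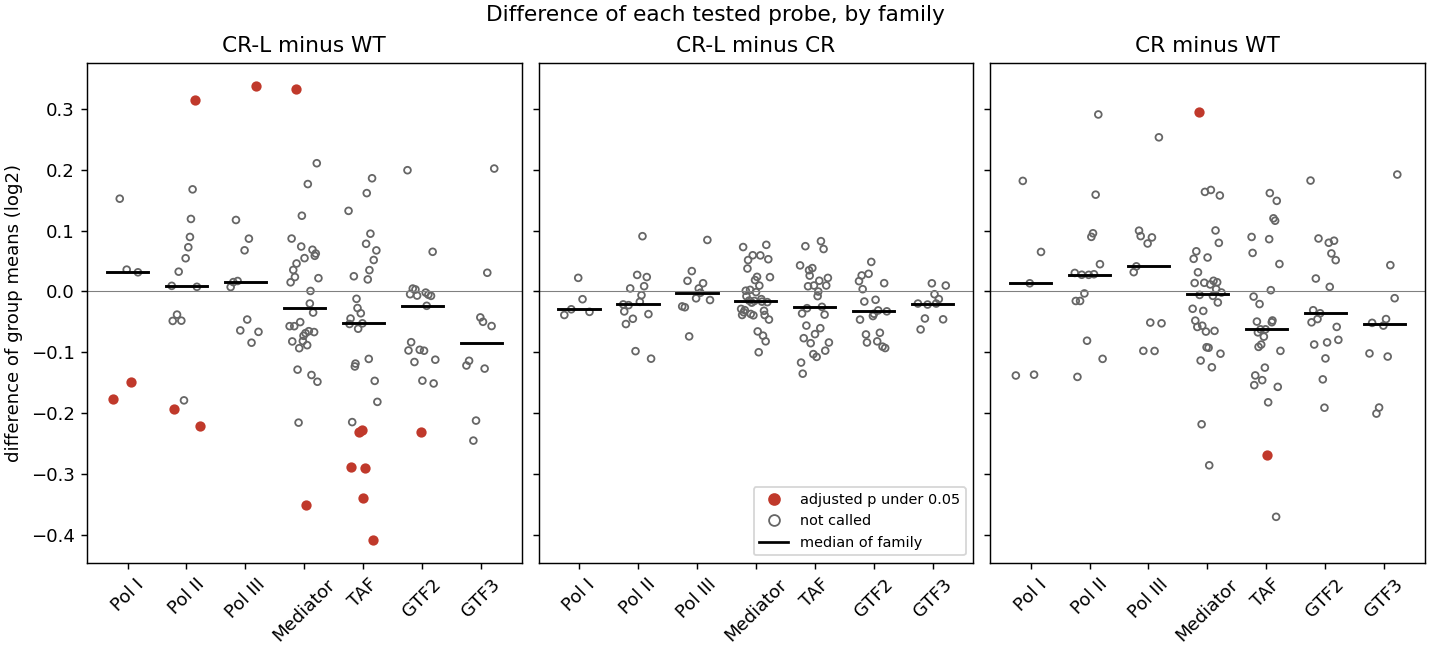
Difference of group means on the log2 scale (vertical axis) of each of the 123 tested probes, by family (horizontal axis), for CR-L minus WT, CR-L minus CR and CR minus WT. Filled red points passed the adjusted threshold of 0.05 (15, 0 and 2 probes), open points did not, and the black line is the family's median. The points of CR-L minus CR lie between -0.14 and 0.091, and those of the 2 comparisons with WT between -0.41 and 0.34.

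The comparison of CR-L with WT sets leptin-supplemented offspring of restricted dams against offspring of normally fed dams. In it, 15 member probes of 12 genes passed the test at an adjusted p under 0.05, which is 12.2% of the members tested, against 3.46% of all 26770 probes. Of these, 12 probes of 9 genes were lower (9.76%, against 1.43% of all probes) and 3 were higher (2.44%, against 2.02%). Lower were Taf9, Taf9b, Taf7, Taf1b, Taf1d, Med6, Polr1c, Polr2m and Gtf2a2, and higher were Med26, Polr2b and Polr3k. The changes were 1.11- to 1.33-fold, with differences from -0.41 to 0.34. At an unadjusted p under 0.05 there were 38 member probes (30.9%, against 16.5% of all), 13 higher (9.19% of all probes were) and 25 lower (7.29%). Over all 123 probes 51 were above 0 and the median difference was -0.036, against 0.0092 over all probes tested. The members were chosen with earlier results of these data known, so no p-value is given for these shares. The count of 15 fell to 9 without WT replicate 2 (7.32%, against 1.93% of all probes) and to 8 without WT replicate 4 (6.5%, against 1.84%). With the late-minus-early measure as a covariate the count was 8 (6.5%, against 1.56% of all probes). With the T cell, B cell, monocyte and granulocyte lists as 4 covariates it was 12 (2.65% of all probes), of which 10 were among the 15. The NK, erythroid and platelet lists were not in that fit. On probes well above background on all 31 arrays, 18 of 120 members passed (15%), against 5.03% of 21247 probes.

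Among subunits of TFIID, which places polymerase II at promoters, Taf9 fell. Taf9 encodes a histone-fold TAF that TFIID shares with the coactivator SAGA, and its probe lies at chr2:31458230-31458289 (rn4, plus strand). Its log2 ratio ran from -0.27 over a median of -0.098 to 0.11 in CR-L, from -0.22 over 0.037 to 0.20 in CR, and from 0.17 over 0.31 to 0.37 in WT. Every CR-L value lay below every WT value, which held for no other member and for 0.176% of all probes in either direction, while 9 of 11 CR values lay below the lowest WT value. The difference of CR-L from WT was -0.34 ± 0.059 (SE, adjusted p = 0.00175), below 0 within each of the 7 slides that held both groups (-0.51 to -0.081). It passed the test under all 45 alternative settings, its adjusted p reaching at most 0.0245.

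Taf9b, the close paralogue of Taf9 that can take its place in TFIID, was read by 2 probes of 1 transcript, of which the earlier fell and the later did not pass. The probe printed above, at base 307, ran from -0.35 over a median of -0.13 to 0.018 in CR-L, from -0.20 over -0.030 to 0.072 in CR, and from 0.0052 over 0.077 to 0.34 in WT. In CR-L 12 of 13 values lay below the lowest of WT, and the difference was -0.23 ± 0.049 (SE, adjusted p = 0.00556). The probe at base 2177 (chrX:94342305-94342364) ran from -0.11 over 0.052 to 0.25 in CR-L, from -0.12 over -0.0027 to 0.17 in CR, and from -0.11 over -0.067 to 0.10 in WT, with a difference of 0.068 ± 0.048 (adjusted p = 0.529). With the late-minus-early measure as a covariate the earlier probe no longer passed (adjusted p = 0.0679).

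Taf7, which in TFIID restrains the catalytic activity of Taf1, had the largest fall of any member in this comparison. Its probe (chr18:30542163-30542222, minus strand) ran from -0.60 over a median of -0.082 to 0.31 in CR-L, from -0.33 over -0.13 to 0.37 in CR, and from -0.0095 over 0.26 to 0.77 in WT. The groups overlapped, with 9 of 13 CR-L values below the lowest of WT, and the difference was -0.41 ± 0.12 (SE, adjusted p = 0.0414). It did not pass in 10 of the 31 fits that left out 1 array, nor with 8 of the 14 other settings. The weakest was the late-minus-early covariate, with a difference of -0.24 (adjusted p = 0.353), and the 4 marker lists as covariates also ended the call. The remaining TFIID subunits did not pass. The 3 probes of Taf1, the scaffold and largest subunit, had differences of -0.12, -0.036 and -0.027 (adjusted p = 0.178, 0.802 and 0.918). One probe of Taf13, a histone-fold partner of Taf11, stood at 0.19 ± 0.071 without passing (adjusted p = 0.156). Over the 18 probes of TFIID subunits 3 were called lower (16.7%, against 1.43% of all probes), 7 were above 0 and the median was -0.032.

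The SL1 factor, through which polymerase I is recruited to ribosomal DNA, had 2 genes that fell. Of its 7 tested probes 3 were called lower (42.9%, against 1.43% of all probes). Taf1b encodes the subunit of SL1 that resembles TFIIB. The junction probe printed above ran from -0.33 over a median of -0.077 to 0.089 in CR-L, from -0.14 over 0.018 to 0.31 in CR, and from 0.051 over 0.15 to 0.47 in WT. CR-L and WT overlapped in 2 CR-L values, and the difference was -0.29 ± 0.060 (SE, adjusted p = 0.00489), below 0 in all 7 slides and past the threshold under all 45 settings. Its size differed with the processing, reaching -0.76 in the scanner's own log ratios and -0.49 in the authors' series table. For Taf1d, a small SL1 subunit, 3 probes were tested. The probe at chr8:12107144-12108524, which crosses an intron, ran from -0.32 over -0.071 to 0.20 in CR-L, from -0.13 over 0.042 to 0.22 in CR, and from 0.029 over 0.18 to 0.40 in WT, a difference of -0.29 ± 0.067 (adjusted p = 0.0113). The probe that follows it at chr8:12108561-12109346 gave -0.23 ± 0.065 (adjusted p = 0.0433), and the probe at chr8:12113242-12113301, designed to another transcript, gave -0.11 ± 0.10 (adjusted p = 0.643). Both called probes lie at the start of the transcript, and neither passed with the late-minus-early covariate. The second of them passed in 20 of 45 settings. None of the other SL1 probes passed: Taf1a was at 0.035, and the probes of Taf1c, the subunit that contacts polymerase I, stood at 0.16 ± 0.050 (adjusted p = 0.0643) and -0.052 ± 0.065 (adjusted p = 0.760).

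In all, 6 of 29 TAF probes were called, all of them lower (20.7%, against 1.43% of all probes called lower). Of the 29, 10 lay above 0 (34.5%, against 54.2% of all probes), and the family's median was -0.052. Per array, the median of the TAF probes ran from -0.12 over 0.00026 to 0.052 in CR-L, from -0.046 over 0.011 to 0.10 in CR, and from -0.015 over 0.047 to 0.15 in WT. The groups overlapped widely, with the middle of CR-L below that of WT. Taf5l, a TAF of SAGA (now named Taf5l1), had 3 probes below 0, of -0.21 ± 0.065 (adjusted p = 0.0574), -0.18 and -0.044.

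Mediator, with 34 tested probes, had 1 gene that rose and 1 that fell (5.88% of its probes called, against 3.46% of all probes). Med26 encodes the subunit at the interface with polymerase II that also binds elongation factors, and its probe lies at chr16:17766906-17766965 (plus strand). It ran from -0.31 over a median of 0.098 to 0.30 in CR-L, from -0.16 over 0.043 to 0.20 in CR, and from -0.41 over -0.27 to -0.14 in WT. One CR-L animal lay within the WT range and the other 12 above it. The difference was 0.33 ± 0.062 (SE, adjusted p = 0.00234), above 0 in each of 7 slides (0.18 to 0.56). Scaling between arrays was the single setting of 45 under which it did not pass (0.52, adjusted p = 0.0879).

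Med6, a core subunit of the Mediator head that touches the polymerase, had values from -0.43 over a median of -0.096 to 0.25 in CR-L, from -0.21 over -0.050 to 0.19 in CR, and from 0.019 over 0.26 to 0.36 in WT (chr6:105432999-105433058, minus strand). Of 13 CR-L values 11 lay below the lowest of WT. The difference was -0.35 ± 0.071 (SE, adjusted p = 0.00404) and passed under all 45 settings. Med14, the backbone of the complex, stood at 0.12 ± 0.069 without passing (adjusted p = 0.378). Of the tail subunits, which receive activators, 4 of 5 probes were above 0, with Med25 at 0.21 ± 0.073 (adjusted p = 0.108) and Med23 at 0.18 ± 0.073 (adjusted p = 0.195). In the middle module 3 of 11 probes were above 0, among them Med26. The 6 probes of the kinase module (Med12, Med12l, Med13 and Med13l) had differences between -0.088 and 0.055. Med12l spread the most of any member, from 0.028 to 0.87 in CR-L, from 0.046 to 1.11 in CR and from 0.025 to 0.86 in WT. Over the family 16 of 34 probes were above 0, with a median of -0.027.

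Subunits of the polymerases went both ways. Called were 2 of 5 probes of polymerase I (40%), 3 of 15 of polymerase II (20%) and 1 of 11 of polymerase III (9.09%). Over all probes 3.46% were called. Polr2b, the second largest subunit of polymerase II and part of its catalytic centre, rose: its junction probe ran from -0.22 over a median of 0.020 to 0.25 in CR-L, from -0.19 over -0.0087 to 0.23 in CR, and from -0.75 over -0.27 to -0.029 in WT. Every CR-L value lay above the WT median and 10 of 13 above the highest WT value. The difference was 0.32 ± 0.070 (SE, adjusted p = 0.00901). It did not pass in the red channel alone (adjusted p = 0.0826).

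Polr2m is not a core subunit: it encodes Gdown1, a protein that binds polymerase II and competes with initiation factors. Its 3 probes lay below 0. The probe at base 221 (chr8:75952499-75952558, minus strand) ran from -0.26 over -0.033 to 0.033 in CR-L, from -0.061 over 0.047 to 0.16 in CR, and from -0.18 over 0.16 to 0.34 in WT, a difference of -0.22 ± 0.053 (adjusted p = 0.0147). A probe nearer the other end (chr8:75947280-75947339) gave -0.19 ± 0.054 (adjusted p = 0.0382, past the threshold in 26 of 45 settings and with neither set of covariates), and its neighbour (chr8:75947164-75947223) -0.18 ± 0.053 (adjusted p = 0.0528). WT replicate 7 stood apart at -0.18 for the first probe, below the CR range, while the other WT values were at 0.12 or more. The first probe passed in 41 of 44 settings, and those where it did not include the fit without WT replicate 4 and the late-minus-early covariate (-0.14, adjusted p = 0.181).

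Polr1c, which polymerases I and III share, fell on both of its probes. The probe at chr9:10302290-10302349 ran from -0.24 over a median of -0.13 to -0.011 in CR-L, from -0.25 over -0.092 to 0.080 in CR, and from -0.036 over 0.030 to 0.14 in WT. In CR-L 12 of 13 values were below the lowest WT value, and the difference was -0.18 ± 0.040 (SE, adjusted p = 0.00892). This call was lost after scaling between arrays and in the authors' series table (adjusted p up to 0.206). The probe at chr9:10302161-10302220 ran from -0.17 to 0.17 in CR-L, from -0.23 to 0.067 in CR and from 0.033 to 0.12 in WT, a difference of -0.15 ± 0.043 (adjusted p = 0.0481), which did not pass in 23 of the 31 fits without 1 array. Of the polymerase I subunits proper, Polr1a, the largest, was at 0.036 ± 0.050 (adjusted p = 0.792), and Polr1b, the second largest, at 0.15 ± 0.059 (adjusted p = 0.161). The 5 genes shared by all 3 enzymes gave 5 differences above 0, from 0.033 to 0.17 with a median of 0.073, and none passed.

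Polr3k, the subunit with which polymerase III cleaves and releases its transcript, rose. It ran from -0.71 over a median of 0.12 to 0.31 in CR-L, from -0.30 over -0.057 to 0.25 in CR, and from -0.56 over -0.25 to -0.077 in WT (chr3:171021451-171021510, plus strand). Of 13 CR-L values 9 lay above the highest of WT and 1 below the lowest. The difference was 0.34 ± 0.099 (SE, adjusted p = 0.0489), which did not pass in 23 of the 31 fits without 1 array. The other 10 polymerase III probes had differences from -0.084 to 0.12.

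Among the general factors Gtf2a2, the small subunit of TFIIA, fell. Its probe (chr8:74447892-74449131, across an intron at the start of the transcript) ran from -0.62 over a median of -0.24 to 0.047 in CR-L, from -0.43 over -0.18 to 0.048 in CR, and from -0.077 over -0.0052 to 0.19 in WT. With 9 of 13 CR-L values below the lowest of WT the difference was -0.23 ± 0.067 (SE, adjusted p = 0.0484). It did not pass in 23 of the 31 fits without 1 array, nor with the late-minus-early covariate (adjusted p = 0.169) or the 4 marker lists as covariates. Gtf2b, which encodes TFIIB, was at -0.0067 ± 0.052 (adjusted p = 0.969), with values of -0.10 to 0.33 in CR-L, -0.0089 to 0.25 in CR and 0.031 to 0.24 in WT. Gtf2h4, a core subunit of TFIIH, stood at 0.20 ± 0.062 without passing (adjusted p = 0.0680). The 3 TFIIE and 2 TFIIF probes were all below 0, from -0.11 to -0.024, and the 6 probes of TFII-I and its relatives lay between -0.097 and 0.0033. Over the Gtf2 family 1 of 19 probes was called (5.26%, against 3.46% of all probes), 4 were above 0 and the median was -0.024.

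None of the 10 Gtf3 probes passed, though 5 had an unadjusted p under 0.05 (50%, against 16.5% of all probes). The family had the lowest median, -0.085. Gtf3c3, a subunit of TFIIIC, the factor that binds the internal promoters of transfer RNA genes, had values of -0.45 to -0.0087 in CR-L, -0.41 to 0.025 in CR and -0.31 to 0.37 in WT, a difference of -0.25 ± 0.073 (adjusted p = 0.0557). Its other probe gave -0.21 (adjusted p = 0.218). Gtf3c4 stood at 0.20 ± 0.067 (adjusted p = 0.0881), and Gtf3c1, the largest TFIIIC subunit, stood at 0.031 ± 0.073 (adjusted p = 0.893). Per array, the median of the Gtf3 probes ran from -0.15 over -0.052 to 0.080 in CR-L, from -0.10 over -0.032 to 0.055 in CR, and from -0.088 over 0.039 to 0.096 in WT.

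**Figure D2:**
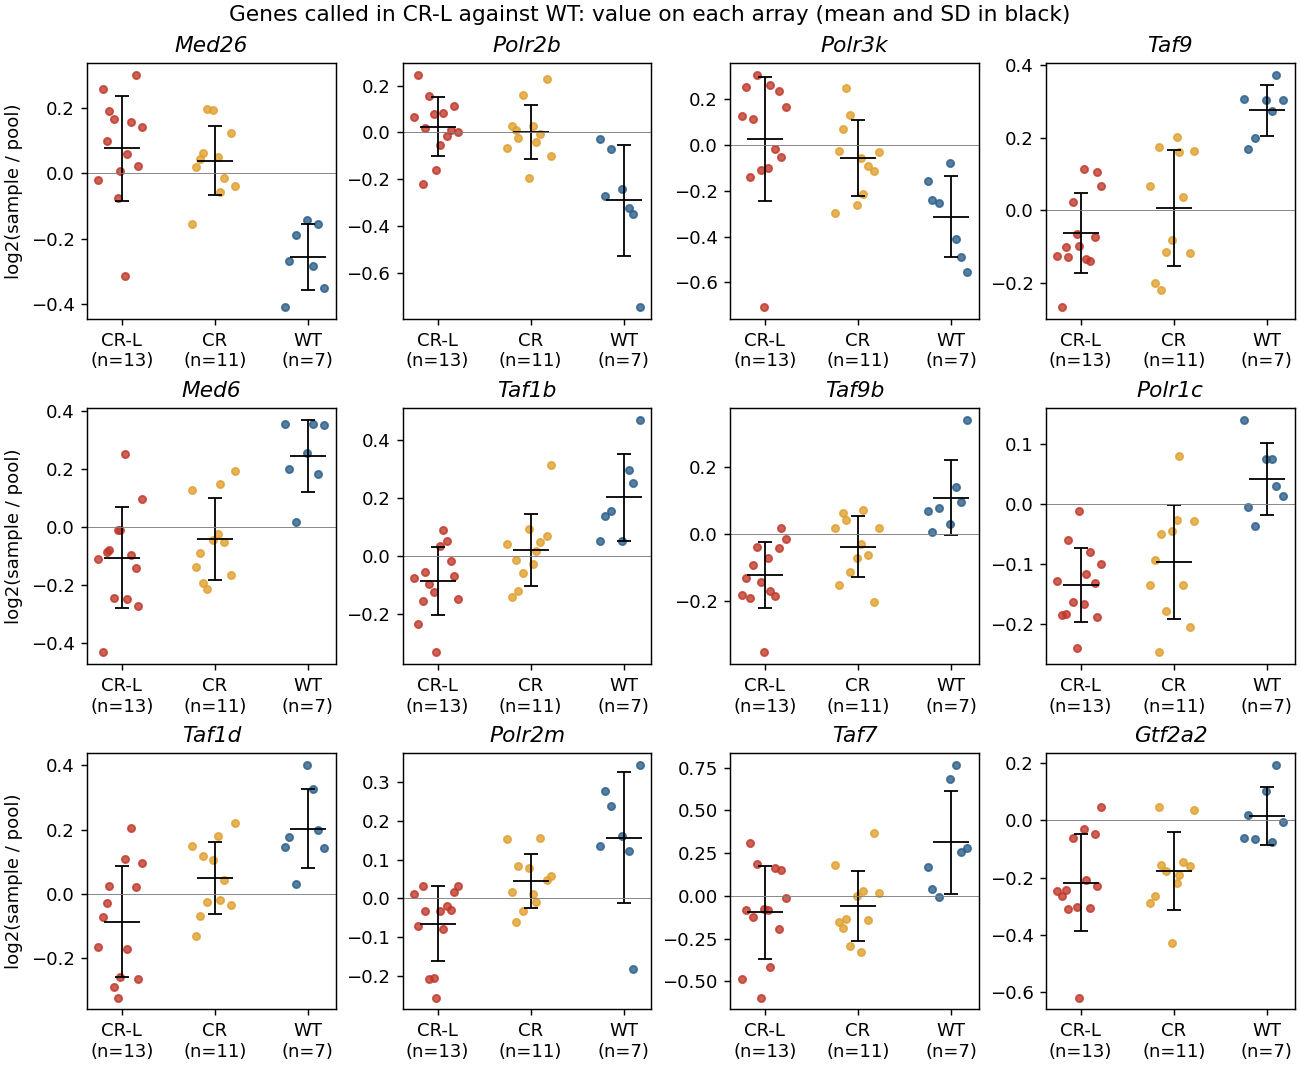
Log2 ratio of sample over pool (vertical axis) on each array, for the 12 genes called in CR-L against WT, with 1 probe per gene (the one with the smallest p), in CR-L (13 arrays), CR (11) and WT (7). Black lines give mean and SD. In the panel of Taf9 all CR-L points lie under all WT points, and in that of Med26 1 CR-L point lies at the level of WT.

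The comparison of CR with WT asks about maternal restriction without leptin, and it shares its WT arrays with the one above. Here 2 member probes passed (1.63%), against 0.478% of all probes: Med26 was higher (1 of 123, 0.813%, against 0.374%) and Taf9 lower (1 of 123, 0.813%, against 0.105%). Over all probes 100 were higher and 28 lower, but this split was 63 and 38 in the scanner's own log ratios, 23 and 26 in the red channel alone and 6 and 5 after scaling between arrays. Med26 differed by 0.30 ± 0.064 (SE, adjusted p = 0.0263), with 10 of 11 CR values above the highest of WT, and by 0.14 to 0.54 within the 7 slides. With slide as a fixed block its call was lost, at 0.28 ± 0.066. Taf9 differed by -0.27 ± 0.061 (SE, adjusted p = 0.0357), with 9 of 11 CR values below the lowest of WT, and by -0.39 to -0.11 within the slides. Med26 passed in 32 and Taf9 in 31 of 45 settings, with adjusted p up to 0.378 and 0.306. Leaving out single arrays gave 0 to 4 calls (20 to 246 over all probes). It was 0 without WT replicates 2, 4 or 6 or CR replicates 3, 4 or 8, 1 without WT replicates 5 or 7 or CR replicates 5 or 6, and 4 without WT replicate 3, CR replicate 9 or CR-L replicates 6 or 10. With the same 4 marker lists as covariates no member passed (smallest adjusted p = 0.103, 24 members at an unadjusted p under 0.05), and 0.0672% of all probes did. With the late-minus-early covariate 2 members passed (1.63%, against 0.224% of all probes), both lower, and Med26 was not among them.

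At an unadjusted p under 0.05, 32 member probes were found in CR against WT (26%, against 12.2% of all probes), 14 of them higher (7.38% of all probes were) and 18 lower (4.79%). The strongest of those that did not pass the adjusted test were Polr2b at 0.29 ± 0.073 (adjusted p = 0.0577) and Med6 at -0.29 ± 0.073 (adjusted p = 0.0595). Other genes called in CR-L against WT stood in CR minus WT at -0.37 ± 0.12 for Taf7, -0.18 ± 0.062 for Taf1b, -0.15 ± 0.050 for the early Taf9b probe, -0.19 ± 0.069 for Gtf2a2 and 0.25 ± 0.10 for Polr3k (adjusted p from 0.145 to 0.283). Both Polr1c probes were at -0.14 (adjusted p = 0.107 and 0.158). Above 0 without passing were Taf1c (0.16), Polr1b (0.18), Gtf2h4 (0.18), Gtf3c4 (0.19), Polr2l (0.090), Taf6l (0.15) and Taf8 (0.12), and below 0 Gtf3c3 (-0.20) and Med28 (-0.11). The earlier probes of Taf8 and Taf1c had the opposite sign, at -0.16 and -0.062. Med14 was at 0.16 ± 0.071 (adjusted p = 0.332), Taf1 between -0.074 and -0.062, Gtf2b at -0.036, Gtf3c1 at 0.043 and Polr1a at 0.014.

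By family, 20 of 29 TAF probes and 8 of 10 Gtf3 probes were below 0 in CR minus WT, with medians of -0.062 and -0.054, while polymerase II (9 of 15) and polymerase III (7 of 11) had more probes above 0, with medians of 0.028 and 0.041. The Mediator median was -0.0037, that of Gtf2 -0.036 and that of polymerase I 0.014. All 123 probes had a median of -0.016, against 0.011 over all probes tested, of which 55.2% were above 0.

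**Figure D3:**
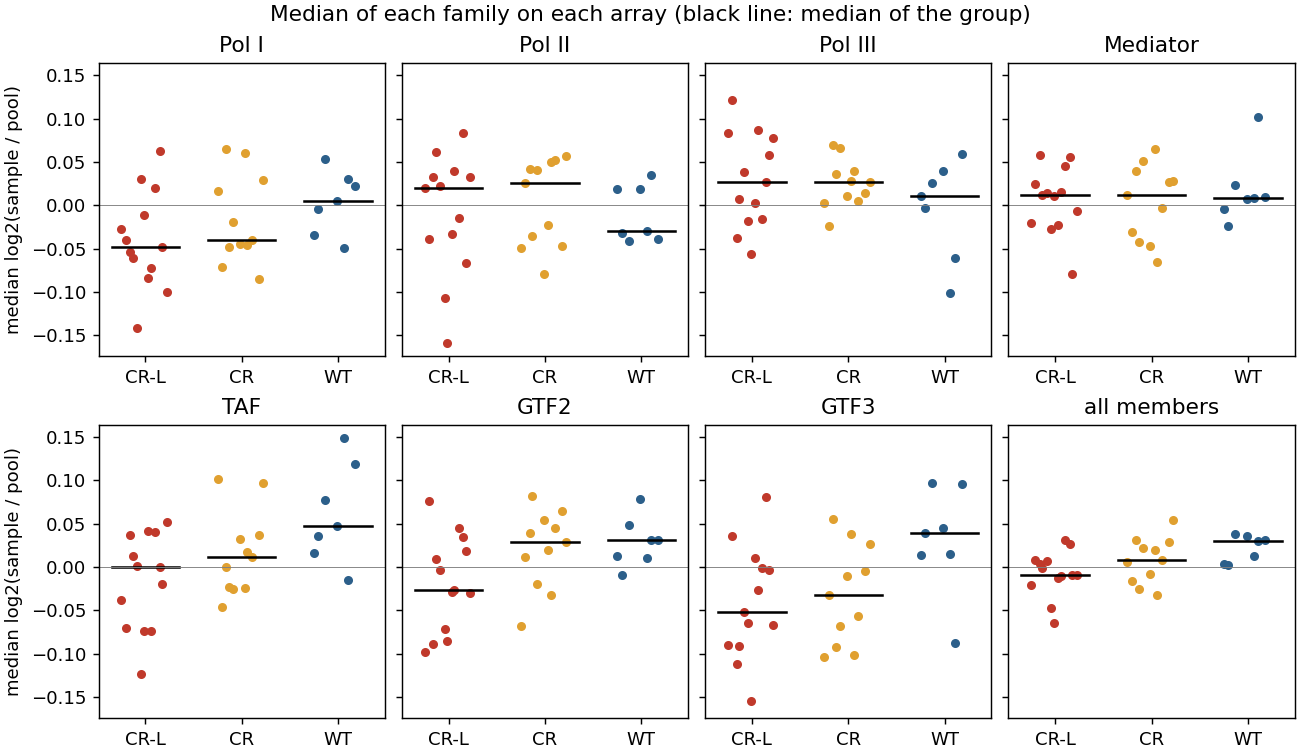
Median log2 ratio of sample over pool of each family's tested probes (vertical axis) on each array, in CR-L, CR and WT, with the group's median as a black line. The ranges of the 3 groups overlap in every panel, and the TAF medians run from -0.12 to 0.052 in CR-L, from -0.046 to 0.10 in CR and from -0.015 to 0.15 in WT.

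Leptin supplementation itself is addressed by CR-L against CR, where both groups had restricted dams. No probe on the array passed by limma (0%, 0 of 26770, with 598 or 2.23% at an unadjusted p under 0.05), and so no member did. Of the members 5 had an unadjusted p under 0.05 (4.07%), none higher (1.12% of all probes were) and 5 lower (also 1.12%). Lowest in p was Taf5, a structural subunit of TFIID, at -0.12 ± 0.044 (unadjusted p = 0.0125, adjusted p near 1, at 0.99992), with values of -0.27 to 0.16 in CR-L, -0.044 to 0.24 in CR and -0.11 to 0.13 in WT. Next were Polr2m on its probes at bases 221 and 2022 (-0.11 ± 0.046 and -0.098 ± 0.046), Taf1d on its first probe (-0.14 ± 0.058) and Taf1b (-0.11 ± 0.052). Med26 and Taf9 stood at 0.038 ± 0.054 and -0.070 ± 0.051. In the families without such a probe, the smallest p belonged to Gtf2i (-0.084 ± 0.044), Med13 (-0.082 ± 0.047), Gtf3c6 (-0.062 ± 0.047), Polr3f (-0.074 ± 0.057) and Polr1c (-0.039 ± 0.035). Of the 123 members 44 were above 0, with a median of -0.017, against -0.0045 over all probes.

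Of the 24 genes with several tested probes, 16 had all of theirs on 1 side of 0 in CR-L minus WT and 8 did not. Besides Taf9b, Taf8 gave -0.15 and 0.095, Taf13 -0.012 and 0.19, Taf1c -0.052 and 0.16, and Polr3f -0.084, 0.017 and 0.12, each in order along the transcript. The later probe was thus the higher in all 4. Polr2m, Taf5l, Gtf3c3 and Gtf2h1 kept 1 sign on all of their probes. Taf5l ran counter to the majority, with -0.044 on its earlier and -0.21 on its later probe. So did Med19 (0.087 and 0.035) and Gtf2h1 (-0.147 and -0.151). Over the 18 member transcripts the later probe exceeded the earlier by a median of 0.065 in CR-L minus WT, against 0.049 over all 2402 transcripts. In CR minus WT the later was higher in 16 of 18 (67.9% over all), and in CR-L minus CR in 11 of 18 (57.1% over all).

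**Figure D4:**
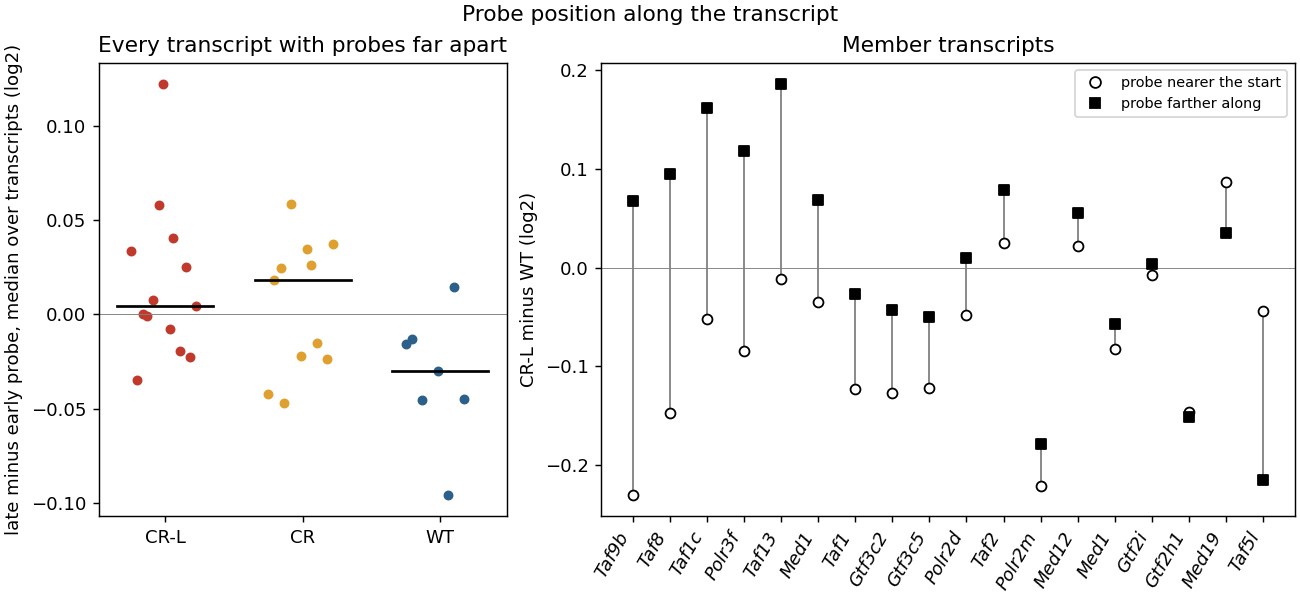
Left, the median over 2402 transcripts of the later minus the earlier probe (log2, vertical axis) on each array, in CR-L, CR and WT, with the group's median as a line. Right, CR-L minus WT (log2) of the earlier probe (circle) and the later probe (square) of 18 member transcripts, where the later probe is the higher in 15.

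Other genes of transcription, which the name rule does not take in, were also listed, such as TBP and the elongation factors. Of 84 listed, chosen with earlier results of these data known, 73 were measured. In CR-L against WT 6 of the 73 passed, 4 higher and 2 lower, beside 3.46% of all probes, 2.02% higher and 1.43% lower. Of the 73, 39 were above 0, as were 54.2% of all probes. Higher were Mepce (0.29), which caps and holds the 7SK RNA that restrains elongation, the elongation factors Iws1 (0.27) and Leo1 (0.24), and Tfb2m (0.18), a mitochondrial transcription factor. Lower were Twistnb (-0.28), a polymerase I subunit now named Polr1f, and Snapc2 (-0.16), of the complex at small nuclear RNA genes. In CR against WT only Iws1 passed (0.21). TBP itself, the partner of the TAFs, was at 0.080 ± 0.050 (adjusted p = 0.450) in CR-L minus WT, and the Mediator kinase partners Cdk8, Cdk19 and Ccnc at -0.025, 0.056 and -0.18, none of which passed.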

How the data were processed

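Total RNA of PBMC from 31 rats was labelled with Cy5 and hybridised beside a Cy3 pool, 1 Agilent array each. The scanner files hold intensity values, the mean spot signal and median local background as scanned, per the file headers, read with Agilent Feature Extraction 10.7.3.1 per the submitters' processing notes. They also hold a log10 ratio of red over green, background-detrended and dye-normalised by the scanner software per the file headers. The authors' deposited series table is in log2 units with every column median at 8.17. It followed log2 red intensity (lowest r = 0.993), and its normalisation is not given in the sources used here.

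From the intensities, limma 3.58.1 in R 4.3.3 applied normexp (offset 50) and loess within arrays, with control spots at weight 0 and none between arrays. Outlier spots (0.408% of values) were set missing and spots of a probe averaged. The test covered 26770 of 41012 probes, those whose red signal passed the scanner's well-above-background flag on 7 or more arrays: lmFit and eBayes on the 3 group means over all 31 arrays, two-sided, Benjamini-Hochberg over all 26770, threshold 0.05. Precision is limited by how many arrays each group has. The fit was tested on simulated data.

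Groups come from sample titles and slides from the array names. Alternatives were other background corrections and scalings, the series table, detection filters, 1 probe per gene name, slide and replicate blocks, a trended prior, single arrays left out, and, chosen after seeing the data, marker lists or the late-minus-early measure as covariates. The proliferation list (10 genes) had Mcm6 lower in CR-L than in WT and no other call. Probe coordinates are those of the array files (rn4). Genes named are those past the threshold, up to 10 per direction at an unadjusted p under 0.05, the smallest p of each family, the largest subunits, and genes whose probes differ in sign. The values of other members were named after they were seen. Members and lists were chosen with earlier results of these data known.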

Additional observations from a re-analysis of the deposited data

Results flagged for a closer look

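Values of single WT arrays were compared with the rest of their group of 7, by the gap to the nearest value over the whole range (Dixon's criterion), for 49 sets of values. Chance gives about 1 in 20, and 3 stood apart. The early Taf9b probe was at 0.341 in WT replicate 4, with the other 6 WT arrays between 0.0052 and 0.14. The Polr2m probe at base 221 was at -0.181 in WT replicate 7, with the others between 0.12 and 0.34. The median of the Mediator probes was 0.102 in WT replicate 7, with the others between -0.024 and 0.023.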

How the results depend on the processing

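All 15 member probes called in CR-L against WT kept their sign in every alternative in which they were measured. Taf9, Med6 and Taf1b stayed past the threshold in all 45, and Polr1c (second probe), Polr3k and Gtf2a2 in 13 of 44, 14 of 45 and 16 of 45. The 15 calls became 7 after scaling between arrays (416 over all probes) and 8 in the authors' series table (626 of 25178 probes). They became 9 with no filter on dim probes (720 of 41012 probes) and 8 with the late-minus-early covariate (418 over all probes). With single arrays left out there were 8 to 18 (492 to 1292 over all probes). The 2 calls in CR against WT became 1 with the scanner's log ratio (101 over all probes), offset 16 (75), the red channel alone (49) or slide as a fixed block (98, Med26 lost). They became 0 after scaling (11), in the series table (0) or with 4 marker lists as covariates (18), and 4 on probes well above background on all arrays (204). The late-minus-early covariate left 60 over all probes, and leaving out single arrays gave 0 to 4 (20 to 246 over all probes). CR-L against CR gave 0 in every alternative. The replicate block gave 4 calls in CR against WT (265 over all probes), 0 in CR-L against CR and 12 in CR-L against WT (1106 over all probes), with the first Polr2m probe among the calls lost. Equal replicate numbers were not used as pairs in the main fit, as the labels do not say that they mark related animals. Deviations of same-numbered arrays correlated at -0.22 to 0.15 over 7 pairs (CR and WT). They correlated at -0.43 to 0.43 over 11 (CR-L and CR) and -0.15 to 0.37 over 7 (CR-L and WT). Differently numbered arrays were not set beside them, so these values cannot decide whether equal numbers pair samples. Of 294 family medians under the other alternatives, 290 moved by less than the spread between arrays (SD within groups). That spread is larger than many of the medians, so a median can change sign and still be counted there. The Gtf2 median in CR-L minus WT, -0.0235 in the main fit, was -0.0745 in the red channel alone and -0.0785 in the series table. On probes well above background on all arrays it was -0.0834. The polymerase I median in CR-L minus WT changed sign, from 0.0316 in the main fit to -0.0186 with the late-minus-early covariate. Among the named members the sign turned only for those that had not passed. In CR-L minus WT, Gtf2b was 0.0605 in the red channel alone, 0.0246 after scaling, 0.0190 in the series table, 0.0093 with the slide block, 0.0046 with the replicate block and 0.0229 with the late-minus-early covariate. Gtf3c1 was -0.0027 in the red channel alone, -0.0062 with the slide block and -0.0609 with the replicate block. Polr1a was -0.0057 with the replicate block and -0.0186 with the late-minus-early covariate. The Taf1 probe at base 6115 was 0.00019 with the slide block, 0.0362 with the replicate block and 0.119 with the late-minus-early covariate, which put the probe at base 5369 at 0.0545. In CR minus WT, Gtf3c1 was -0.0124 with the replicate block, Polr1a -0.0089 with the slide block and -0.0282 with the late-minus-early covariate, and Taf1 (base 6115) 0.0496 with that covariate. In CR-L minus CR, the red channel alone gave Polr2m (base 2022) 0.0309, Polr3f 0.0276 and Med14 0.0378, the series table Polr3f 0.0183, the slide block Med14 0.0065, the replicate block Polr1a -0.0060 and the marker lists Gtf3c1 0.0240. Single arrays left out gave Polr1a -0.0188 to 0.0547 in CR minus WT, Gtf3c1 -0.0474 to 0.0232 in CR-L minus CR, and in CR-L minus WT Taf1 (base 6115) -0.0682 to 0.0064 and Gtf2b -0.0265 to 0.0136. The cause was not tested.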
